A study of Homo sapiens with 24 samples.

Results

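Polyadenylated RNA of whole cells, labelled total RNA, was compared between 2 human tumour cell lines. U-251MG was established from a glioblastoma, a malignant brain tumour, and U-2 OS from an osteosarcoma, a malignant bone tumour. The members were chosen by their labels and comprised 8 of the 24 sequencing libraries of the series, namely the 4 of U-251MG total RNA (replicates 5 to 8) and the 4 of U-2 OS total RNA (replicates 1 to 4). The remaining 16 libraries hold cytoplasmic RNA of the same lines and RNA of A-431, an epidermoid carcinoma line, and were used only where they are named. The labels give no treatment and no engineered allele for either line, and the study harvested both during exponential growth. Each tumour type was represented by 1 established line, so that tumour type, donor of origin and culture history cannot be told apart. The series calls the 4 libraries of a line biological replicates, but no label ties a library to a culture, and all p-values here refer to the spread among these libraries alone.

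Glioblastoma cells often carry markers of astrocytes and of neural stem cells. These include GFAP, the intermediate filament protein of astrocytes, the progenitor transcription factor SOX2, and FABP7, a fatty acid-binding protein of radial glia. Osteoblasts, the bone-forming cells, depend on the transcription factor RUNX2, carry the alkaline phosphatase ALPL, and lay down type I collagen, a trimer assembled from chains encoded by COL1A1 and COL1A2. Cancer cell lines retain such programs unevenly, and they also differ in matrix, adhesion, growth factor and cell cycle genes.

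Reads counted in genes ranged from 19918911 to 30835231 per U-251MG library and from 21805430 to 27623859 per U-2 OS library. Counts above 0 were found for 21512 to 22279 of the 51715 genes in U-251MG and for 24177 to 24852 in U-2 OS. After every library was thinned to the smallest, the numbers were 21282 ± 175 and 24049 ± 75.5 (mean ± SD, n = 4 each), and the lines did not overlap (exact permutation p = 0.0286, two-sided, which is the lowest value possible with 4 against 4, and 0.0571 after Benjamini-Hochberg adjustment over the 8 library measures). Between 25.9 and 27.1% of reads fell outside genes or could not be assigned in U-251MG, against 29.7 to 30.2% in U-2 OS. The 13 mitochondrial mRNAs took 1.37 to 3.20% of gene counts in U-251MG, with the highest share in replicate 5, against 3.00 to 4.66% in U-2 OS. Every library held low counts of genes that were high in another line. The 81 protein-coding genes above 20 CPM (counts scaled to a library of 1000000) in each U-2 OS library and below 0.5 CPM in all other total RNA libraries were counted in U-251MG at 0.0797 to 0.11% of their U-2 OS level. The 11 such genes of U-251MG were counted in U-2 OS at 0.141 to 0.291% of their U-251MG level. The limit of 0.5 CPM used to pick these genes caps the shares, which may include low expression. The shares also differ between genes, as some genes high in U-2 OS had no read in U-251MG. Levels at or below such shares are given below and are read neither as expression nor as its absence. The 65 such genes of A-431 were at 0.112 to 0.132% in U-251MG libraries that shared a sequencing lane with A-431. In the other U-251MG libraries they were at 0.0386 to 0.0422%. In U-2 OS these shares were 0.145 to 0.157% and 0.105 to 0.107%. The genes of U-251MG showed no such split in U-2 OS (0.208 and 0.209% with a shared lane, 0.291 and 0.141% without). The source of these counts was not tested.

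Of the 51715 genes, 17661 passed a filter on low counts and were tested with edgeR's quasi-likelihood test. Ratios are log2 of U-251MG over U-2 OS, so that positive values are higher in U-251MG. A gene was called at a Benjamini-Hochberg adjusted p under 0.001 together with a log2 ratio of at least 1 in size. In total, 2587 genes (14.6% of those tested) were higher in U-251MG and 3791 (21.5%) were higher in U-2 OS, 36.1% in all. With the p-value alone 11113 genes (62.9%) passed, and the 4 values of U-251MG and the 4 of U-2 OS did not overlap for 12792 genes (72.4%), so that a lack of overlap is common background here. The median log2 ratio of all tested genes was -0.03.

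The calls differed in kind between the lines. The median size of the log2 ratio was 1.62 among genes higher in U-251MG and 3.11 among those higher in U-2 OS. The genes higher in U-251MG had a median of 28.6 CPM in that line, whereas those higher in U-2 OS had a median of 6.54 CPM in theirs. For 461 genes higher in U-2 OS no read was counted in any U-251MG library, while 37 genes higher in U-251MG had no read in any U-2 OS library. Among protein-coding genes, 482 had at least 1 CPM in every U-2 OS library and under 0.1 CPM in every U-251MG library, and 64 showed the opposite pattern. Long non-coding RNAs were called more often towards U-2 OS, with 320 (37.2%) of 861 tested higher there and 132 (15.3%) higher in U-251MG. Protein-coding genes gave 2945 (22%) and 2140 (16%) of 13388, respectively.

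**Figure D1:**
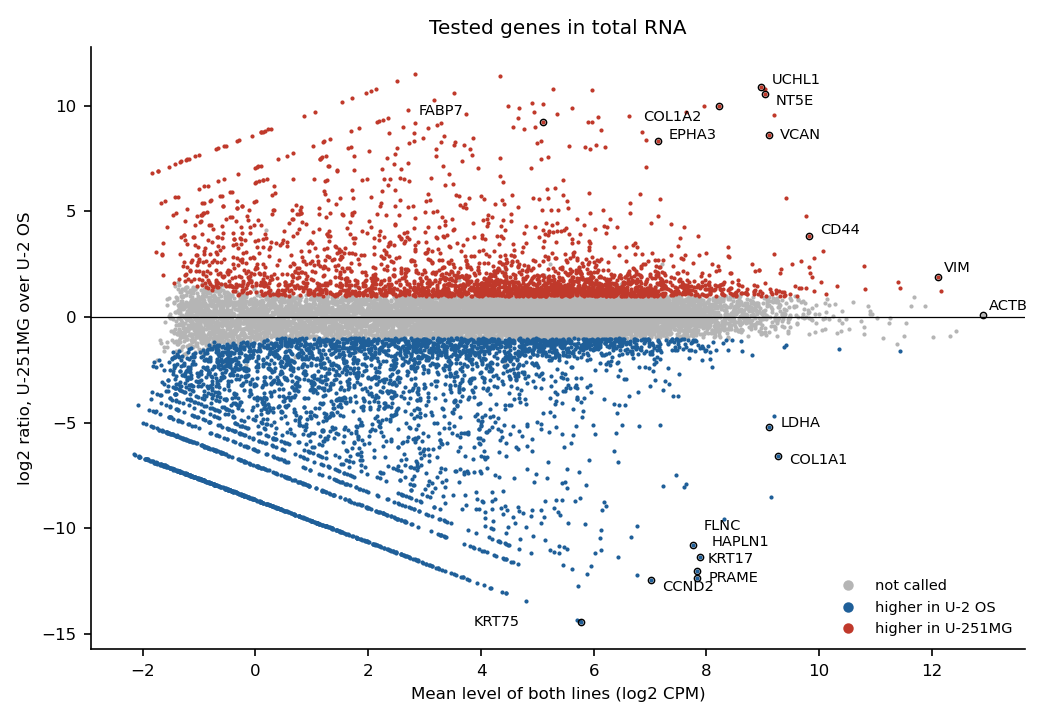
Log2 ratio of U-251MG over U-2 OS (vertical axis) against the mean level of each gene over the 8 libraries in log2 CPM (horizontal axis), with a point per gene and colours for the genes called in each direction. The diagonal stripes at low levels are genes with 0 or few counts in either line, whose fitted ratios depend on the prior count, and labelled genes are described in the text.

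The genes with the largest ratios towards U-251MG included enzymes, membrane proteins and a transcriptional co-activator. UCHL1, a neuronal deubiquitinating enzyme (chromosome 4, 41258430 to 41270472, GRCh37), reached 1039, 975, 1121 and 864 CPM in U-251MG against 0.434, 0.549, 1.08 and 0.0345 CPM in U-2 OS in replicate order (log2 ratio 10.89 ± 0.36, SE, adjusted p = 5.32e-08 in the edgeR test). NT5E, the ecto-enzyme CD73 that produces adenosine (chromosome 6, 86159302 to 86205509), reached 929, 1066, 928 and 1271 CPM in U-251MG against 0.391, 1.06, 1.15 and 0.138 CPM in U-2 OS (10.58 ± 0.36). Both genes were high in all 4 U-251MG libraries, and their U-2 OS values, which spread widely, lay below the trace share given above. Further down the ranking, GFRA1, a co-receptor for GDNF, had 396 ± 19.7 against 0.469 ± 0.332 CPM (9.72 ± 0.24). EYA4, a transcriptional co-activator, had 97.5 ± 2.79 against 0.0988 ± 0.0766 CPM (9.91 ± 0.18). BVES and POPDC3, neighbouring genes on chromosome 6 that encode cyclic AMP-binding membrane proteins, had 125 against 0.0681 CPM and 77.6 against 0.041 CPM. NIBAN1, a stress-induced gene, the connexin gene GJB2, the ubiquitin ligase adaptor BTBD6, the potassium channel subunit KCNS3 and the Notch-binding protein DNER were likewise at 0.0388 to 0.47 CPM in U-2 OS. PCDH10, a protocadherin, had 3958 against 1 counts, a ratio of 4198 with a counting interval of 753 to 165840.0 (95%, counting error only).

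Of the 14 leading genes towards U-2 OS, 10 had no read in any U-251MG library. KRT75, a keratin of hair follicles (chromosome 12, 52817854 to 52828155), had 0 CPM in every U-251MG library against 109, 104, 114 and 112 CPM in U-2 OS, at least 3573-fold higher in U-2 OS when U-251MG is set to 3 counts over its 4 libraries. MAGEB2 and MAGEC1, cancer-testis genes of the X chromosome, had 0 against 11163 counts and 0 against 10731 counts (at least 3509-fold and at least 3373-fold). The set also held the calcium channel subunits CACNA2D1 (at least 1814-fold) and CACNA1H (at least 1349-fold), the synaptic protein RIMS4 (at least 1165-fold) and the sodium pump regulator FXYD6 (at least 1408-fold). The interleukin receptor chain IL2RB, the glycosyltransferase MGAT3 and the phosphatase NUDT11 were also without a read in U-251MG. Reads of NUDT11 that also match its close copy NUDT10 may be lost or misassigned. CCND2, cyclin D2, which drives entry into the cell cycle (chromosome 12, 4378937 to 4414519), reached 0, 0, 0.183 and 0 CPM in U-251MG against 266, 263, 258 and 252 CPM in U-2 OS (-12.46 ± 0.21, adjusted p = 1.44e-18 in the edgeR test). PRAME, a cancer-testis antigen (chromosome 22, 22890123 to 22901768), reached 0.0537, 0, 0.0916 and 0.18 CPM in U-251MG against 440.2, 453, 483 and 456 CPM in U-2 OS (-12.36 ± 0.17). For both genes the few U-251MG counts were below the trace share, and the U-2 OS libraries were close to each other. TUBA3C, an alpha-tubulin gene with close copies and therefore uncertain, had 4 against 22425 counts, and TSPYL5 had 1 against 10881 counts.

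Of the 8 protein-coding genes with the highest mean CPM in each line, 3 were the same, namely ACTB, GAPDH and MT-CO1. ACTB, cytoplasmic beta-actin, had 7923 ± 287 against 7377 ± 408 CPM and was not called (0.10 ± 0.06), whereas ACTG1, whose reads can overlap those of ACTB, had 6389 ± 569 against 2744 ± 98.7 CPM (1.22 ± 0.07). GAPDH and PKM, glycolytic enzymes, had 4410.4 against 3089.7 CPM and 4325 against 2214 CPM without a call, and HSP90AA1, a chaperone, had 3985 against 1527 CPM. THBS1, thrombospondin 1, was higher in U-251MG (4097 against 1295 CPM, 1.66 ± 0.08). TUBB, a beta-tubulin, had 2666 against 3278 CPM (-0.30 ± 0.07).

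Glial and neural stem cell genes were split between the lines rather than collected in the glioblastoma line. In this list 43 of the 55 listed genes were tested, 18 (41.9%) were higher in U-251MG, 17 (39.5%) were higher in U-2 OS, and the median log2 ratio was -0.20, beside 14.6%, 21.5% and -0.03 over all genes. The sign of that median was not stable, as it was 0.29 on thinned counts. FABP7 was among the most different, with 78.1, 64.6, 66.5 and 63.3 CPM in U-251MG against 0.13, 0.169, 0.0722 and 0.069 CPM in U-2 OS (9.25 ± 0.17, adjusted p = 8.52e-20 in the edgeR test). SOX2 reached 139.6, 117, 109 and 121 CPM in U-251MG against 17.1, 18.8, 18.8 and 18.7 CPM in U-2 OS (2.73 ± 0.08). Both genes were higher in all 4 U-251MG libraries than in any U-2 OS library, FABP7 at trace level in U-2 OS and SOX2 clearly above it. The transcription factors POU3F2 (135 ± 12.5 against 0.186 ± 0.0922 CPM), PAX6 (40 ± 3.54 against 0.372 ± 0.195 CPM) and ZIC1 (18.6 ± 1.95 against 0.0271 ± 0.0541 CPM) had the same direction, whereas NKX2-2 (2 against 513 counts) and POU3F3 (1 against 216 counts) were higher in U-2 OS. NFIX, a factor of late gliogenesis (230.3 against 67.3 CPM, 1.77 ± 0.14), the neuronal membrane glycoprotein GPM6A (242 against 1.79 CPM, 7.09 ± 0.10) and S100B, a calcium-binding protein of astrocytes (4.66 against 0.0447 CPM, 6.44 ± 0.39), were also higher in U-251MG.

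GFAP, the defining astrocyte marker, was nearly absent although it was called. Its values were 2.9, 2.7, 2.66 and 2.41 CPM in U-251MG against 0.695, 0.592, 0.866 and 0.241 CPM in U-2 OS (2.16 ± 0.26). The astrocyte water channel AQP4, the glutamate transporter SLC1A2 and the oligodendrocyte lineage factors OLIG1 and SOX10 did not pass the filter in either line. In the opposite direction, NES, nestin, a filament protein of neural progenitors, was lower in U-251MG (50.1 ± 4.34 against 171 ± 6.74 CPM, -1.77 ± 0.07), as were CLU, clusterin (43.4 ± 6.23 against 1125 ± 24.7 CPM, -4.70 ± 0.09), the proteoglycan CSPG4 (4.76 against 81.7 CPM) and OLIG2, with 0 against 418 counts. GJA1, connexin 43, was not called (229 against 133 CPM, 0.79 ± 0.07).

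Neuronal genes were divided too, as 26 of the 43 listed genes were tested, 9 (34.6%) were higher in U-251MG, 11 (42.3%) were higher in U-2 OS, and the median log2 ratio was -0.24. MAP1B, a microtubule-associated protein of growing axons, had 1250.5 ± 51.7 against 486 ± 60.5 CPM (1.36 ± 0.08), and DPYSL3, which guides growth cones, had 473 ± 22.9 against 197 ± 13.7 CPM (1.26 ± 0.07). SYT1, a synaptic vesicle protein, was also higher in U-251MG (52.8 against 2.63 CPM, 4.31 ± 0.23), whereas NRXN2, a presynaptic adhesion protein, was higher in U-2 OS with 1 against 3966 counts (a ratio of 3739.7 with a counting interval of 671 to 147750.0). The adhesion proteins L1CAM (164 against 192 CPM) and THY1 (149.8 against 166 CPM) and the neuronal enolase ENO2 (109 against 84.3 CPM) met no call.

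**Figure D2:**
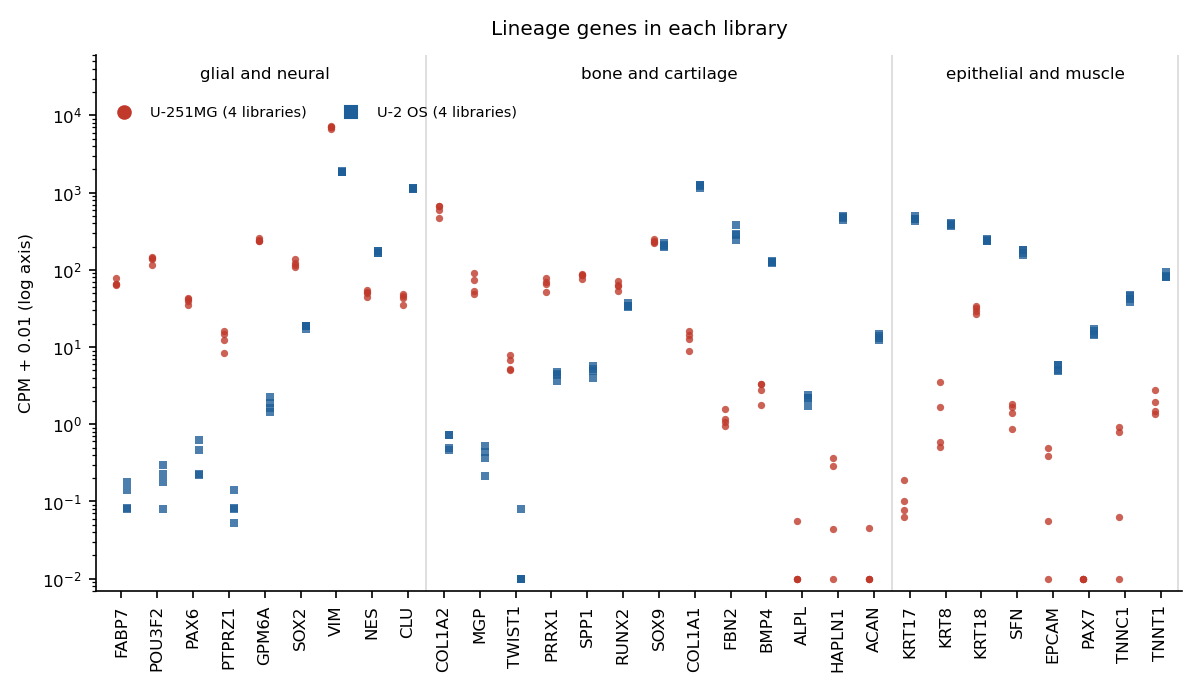
Level of lineage marker genes in each of the 8 libraries, in CPM + 0.01 on a log axis, with a point per library and a colour per line. Glial, bone and cartilage markers are each found on either side, FABP7 and COL1A2 being high in U-251MG and HAPLN1 and COL1A1 in U-2 OS.

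Osteoblast genes were not collected in the osteosarcoma line. In this list 29 of the 42 listed genes were tested, 15 (51.7%) were higher in U-251MG, 10 (34.5%) were higher in U-2 OS, and the median log2 ratio was 1.06. RUNX2, the master factor of osteoblasts, reached 63, 62.6, 72.1 and 53.9 CPM in U-251MG against 34.1, 33, 36.9 and 33.5 CPM in U-2 OS, higher in every U-251MG library but below the size required for a call (0.87 ± 0.08, adjusted p = 8.98e-09 in the edgeR test). ALPL was low in U-2 OS and absent from 3 of 4 U-251MG libraries, with 0, 0, 0.0458 and 0 CPM in U-251MG against 1.69, 2.2, 2.2 and 2.38 CPM in U-2 OS (a ratio of 208 with a counting interval of 37 to 8268). The late osteoblast markers SP7, BGLAP and IBSP did not pass the filter in either line. CDH11, osteoblast cadherin (165 ± 5.71 against 43.4 ± 3.48 CPM, 1.93 ± 0.07), TWIST1 (6.24 against 0.0172 CPM), SPP1, osteopontin (83.5 against 4.9 CPM), and MGP, an inhibitor of calcification (66.4 ± 19.7 against 0.378 ± 0.132 CPM, 7.47 ± 0.35), were higher in U-251MG. BMP4, a bone morphogenetic protein (2.78 ± 0.731 against 127 ± 3.21 CPM, -5.54 ± 0.12), the homeobox factor MSX2 (0 against 553 counts, at least 174-fold) and the receptor decoy TNFRSF11B, osteoprotegerin (1.04 against 22 CPM), were higher in U-2 OS.

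The 2 chains of type I collagen moved apart. COL1A2 (chromosome 7, 94024207 to 94060539) reached 591, 662, 665 and 471 CPM in U-251MG against 0.478, 0.718, 0.722 and 0.448 CPM in U-2 OS (9.97 ± 0.17, adjusted p = 1.09e-16 in the edgeR test). COL1A1 (chromosome 17, 48261462 to 48278993) reached 16, 14.1, 12.7 and 8.95 CPM in U-251MG against 1254, 1201, 1268 and 1148 CPM in U-2 OS (-6.56 ± 0.16, adjusted p = 1.41e-12 in the edgeR test). Each line thus carried high levels of only 1 chain, without overlap for either gene, and COL1A2 in U-2 OS lay below the trace share while COL1A1 in U-251MG lay above it. In the cytoplasmic libraries of the same lines the log2 ratios were 10.29 ± 0.19 and -6.0 ± 0.09.

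Cartilage genes leaned towards U-2 OS. In the chondrocyte list 16 of the 26 listed genes were tested, 4 (25%) were higher in U-251MG, 8 (50%) were higher in U-2 OS, and the median log2 ratio was -0.86. HAPLN1, the link protein that ties aggrecan to hyaluronan (chromosome 5, 82933624 to 83016674), reached 0, 0.0342, 0.275 and 0.36 CPM in U-251MG against 446, 463, 487 and 505 CPM in U-2 OS (-11.37 ± 0.22, adjusted p = 3.70e-14 in the edgeR test), so that U-251MG was at trace level and the U-2 OS libraries were tightly grouped. CYTL1, a secreted protein of cartilage, had 1 against 2016 counts. SOX6, a cartilage factor, was higher in U-2 OS (4.53 ± 0.572 against 37.1 ± 2.75 CPM, -3.05 ± 0.11), COL11A1, a chain of cartilage collagen, had 69.4 against 141 CPM (-1.02 ± 0.08), and SOX9, the master factor of cartilage, met no call (236 ± 12.3 against 208 ± 9.94 CPM, 0.18 ± 0.06). COL11A1 lay below the size required for a call without U-251MG replicate 8 (-0.93). PTHLH, parathyroid hormone-related protein, was higher in U-251MG (30 against 3.84 CPM, 2.97 ± 0.12).

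Collagens showed both directions as a list, which includes the chains of type I. In it 32 of the 34 listed genes were tested, 12 (37.5%) were higher in U-251MG and 9 (28.1%) were higher in U-2 OS. The median log2 ratio was 0.45. COL3A1, type III collagen, was confined to U-2 OS among these lines with 2 against 9099 counts (a ratio of 4289.9 with a counting interval of 1187 to 35428). Higher in U-251MG were COL6A3 (449 ± 33.7 against 159 ± 21.5 CPM, 1.49 ± 0.09) and COL5A2 (293 ± 21.7 against 121 ± 5.1 CPM, 1.28 ± 0.07), whereas the basement membrane chain COL4A2 (312 against 416 CPM) and COL12A1 (442 against 565 CPM) met no call. Basement membrane laminins and the integrins, their receptors, were the most alike of the matrix groups examined by share of calls, as 29 of the 31 listed genes were tested, 8 (27.6%) were higher in U-251MG, 7 (24.1%) were higher in U-2 OS, and the median log2 ratio was 0.22. ITGB1, the common beta chain, had 1022 ± 31.9 against 1642 ± 76.7 CPM (-0.68 ± 0.06, not called), ITGAV had 477 against 382 CPM and LAMC1 had 438 against 399.8 CPM, both without a call. LAMB1 (515 ± 14.4 against 225 ± 12.7 CPM, 1.20 ± 0.06), ITGA6 (373 ± 12.7 against 129.6 ± 3.98 CPM, 1.53 ± 0.06) and ITGA3 (711 ± 79.5 against 355 ± 21.7 CPM, 1.0 ± 0.08) were higher in U-251MG. ITGA3 sat at the limit, with ratios of 0.96 to 1.07 as each library was left out and no call without U-2 OS replicates 2 or 4 or U-251MG replicates 6 or 7.

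Matrix glycoproteins and proteoglycans were called in both directions, as 57 of the 65 listed genes were tested, 15 (26.3%) were higher in U-251MG, 24 (42.1%) were higher in U-2 OS, and the median log2 ratio was -0.58. VCAN, versican, a large proteoglycan of brain and provisional matrix, reached 1118, 1121, 1011 and 1134 CPM in U-251MG against 2.91, 3.09, 3.46 and 1.72 CPM in U-2 OS (8.62 ± 0.15). FBN1, fibrillin 1 (260.2 ± 18.9 against 40.6 ± 6.74 CPM, 2.68 ± 0.10), and TGFBI, a secreted protein induced by TGF-beta (1688 ± 131 against 62 ± 5.51 CPM, 4.77 ± 0.09), were also higher in U-251MG. All 3 were high in every U-251MG library, and FBN1 and TGFBI remained well above trace levels in U-2 OS. FBN2, fibrillin 2, was the counterpart in U-2 OS (1.18 ± 0.269 against 300.1 ± 59.8 CPM, -8.02 ± 0.20), together with FBLN1, fibulin 1 (0.121 ± 0.0698 against 139 ± 9.47 CPM, -10.09 ± 0.15), and HSPG2, perlecan (7.08 ± 1.7 against 164 ± 27.1 CPM, -4.53 ± 0.20). FN1, fibronectin (1072 ± 114 against 805 ± 114 CPM, 0.41 ± 0.10), and SPARC, osteonectin (2219 ± 123 against 1533 ± 32.3 CPM, 0.53 ± 0.06), met no call.

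In the proteases and their inhibitors 45 of the 51 listed genes were tested, 11 (24.4%) were higher in U-251MG, 15 (33.3%) were higher in U-2 OS, and the median log2 ratio was -0.05. The plasminogen activator PLAU, urokinase, was higher in U-251MG (1329 ± 255 against 26.4 ± 1.49 CPM, 5.66 ± 0.13), although the urokinase receptor PLAUR was not called (69.8 against 41.2 CPM). The sheddase ADAM19 was also higher (761 ± 77.7 against 134 ± 6.55 CPM, 2.50 ± 0.08). CTSZ, a lysosomal protease (0.302 ± 0.0539 against 149 ± 7.99 CPM, -8.95 ± 0.12), and the metalloprotease inhibitor TIMP1 (50.3 ± 3.56 against 267 ± 21.9 CPM, -2.41 ± 0.07) were higher in U-2 OS, while TIMP2 (391 against 460.4 CPM), ADAM9 (628 against 396 CPM), ADAM10 (281 against 292 CPM) and CTSB (532 against 442 CPM) met no call.

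Adhesion genes gave 11 higher in U-251MG and 19 higher in U-2 OS among 43 tested of 51, median -0.29. CD44, the hyaluronan receptor, had 1689 ± 279.9 against 118 ± 5.12 CPM (3.84 ± 0.10), CDH2, N-cadherin, had 432 ± 10.4 against 171 ± 5 CPM (1.34 ± 0.06), and ALCAM had 894 ± 69.1 against 441 ± 32.3 CPM (1.02 ± 0.07), all 3 higher in U-251MG, although ALCAM was not called without U-2 OS replicate 3 (0.97) or U-251MG replicate 8 (0.96). Higher in U-2 OS were CADM3, a nectin-like protein (0.128 ± 0.103 against 67.1 ± 1.36 CPM, -9.15 ± 0.17), the giant cadherin DCHS1 (0.2 ± 0.0521 against 79.9 ± 7.99 CPM, -8.64 ± 0.15) and the tetraspanin CD9 (21.4 ± 1.32 against 164 ± 3.78 CPM, -2.94 ± 0.07). FAT1 (397 against 486 CPM) and MCAM (153 against 187 CPM) met no call. The clustered protocadherins, whose members share exons and whose reads are therefore uncertain between copies, differed by cluster. All 8 tested genes of the alpha cluster were higher in U-2 OS (median log2 ratio -7.36), 7 of 12 in the beta cluster were higher in U-2 OS and 1 higher in U-251MG (median -1.91), and 3 of 5 in the gamma cluster were higher in U-251MG and 1 higher in U-2 OS (median 2.65).

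Transcription factors that mark cell lineages were called in both directions, as 94 of the 114 listed genes were tested, 32 (34%) were higher in U-251MG, 35 (37.2%) were higher in U-2 OS, and the median log2 ratio was -0.06. Towards U-251MG, besides POU3F2, PAX6 and ZIC1, stood TFAP2A, a factor of ectoderm and neural crest (71.1 ± 8.41 against 1.06 ± 0.283 CPM, 6.05 ± 0.14), NR2F1 (69.9 ± 8.97 against 4.21 ± 0.789 CPM, 4.06 ± 0.13), the ETS factors ETV5 (219 ± 19.2 against 57.8 ± 3.47 CPM, 1.92 ± 0.07) and ETV1 (52.6 against 8.06 CPM, 2.71 ± 0.11), and FOXP1 (153 against 49.9 CPM, 1.62 ± 0.06). NR2E1, a factor of neural stem cells also called TLX, had 862 against 0 counts (at least 305-fold higher in U-251MG). Factors higher in U-2 OS with no read in U-251MG included PAX7 of muscle progenitors (0 against 1609 counts, at least 506-fold), GATA4 of heart and gut (0 against 876 counts, at least 275-fold), FOXA2 of endoderm (0 against 744 counts, at least 234-fold) and EYA1 (0 against 828 counts, at least 260.2-fold). SOX4 (185 against 164 CPM, 0.17 ± 0.08) and ETS1 (269.9 against 141 CPM, 0.93 ± 0.06) met no call.

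HOX genes, which encode position along the body axis and are silent in the forebrain, were counted in both lines. In this list 31 of the 39 listed genes were tested, 7 (22.6%) were higher in U-251MG, 14 (45.2%) were higher in U-2 OS, and the median log2 ratio was -0.60. HOXA9 was the most different towards U-2 OS, with 0.215, 0.342, 0.412 and 0.324 CPM in U-251MG against 32.1, 32.8, 29.9 and 31.3 CPM in U-2 OS (-6.56 ± 0.15). HOXD13 was the most different towards U-251MG, with 4.88, 5.78, 5.27 and 6.26 CPM in U-251MG against 0.174, 0.0423, 0.144 and 0.069 CPM in U-2 OS (5.65 ± 0.27), and no library of either line overlapped the other for these genes. The differences followed the clusters in part. The tested posterior D genes HOXD10 (2.56), HOXD11 (2.88) and HOXD13 were higher in U-251MG, whereas in the A cluster HOXA3, HOXA5 and HOXA6 were higher in U-251MG (1.07, 1.77 and 1.20) and HOXA4, HOXA9, HOXA11 and HOXA13 in U-2 OS. HOXB9 (34.7 against 55.5 CPM) and HOXC10 (23.3 against 21.1 CPM) met no call, HOXB3 was higher in U-251MG (49.9 against 22.8 CPM, 1.12 ± 0.08), and HOXC13 (9.29 against 26.1 CPM, -1.49 ± 0.09) and HOXC6 (6.16 against 21.3 CPM, -1.81 ± 0.12) were higher in U-2 OS. HOXA3 lost its call without U-251MG replicate 5 (0.88) or U-2 OS replicate 3 (0.98), and HOXA6 lost it under all omissions of 1 library but U-2 OS replicate 3 and U-251MG replicate 8. Reads were counted without strand, so that overlapping and antisense transcripts of these clusters cannot be told apart.

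**Figure D3:**
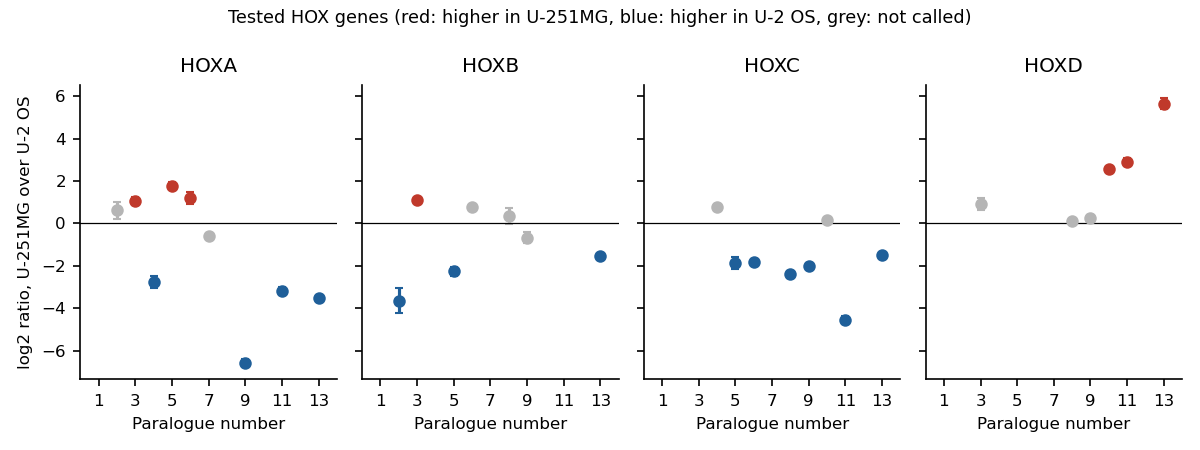
Log2 ratio of U-251MG over U-2 OS (vertical axis, bars are the SE) for tested HOX genes, in a panel per cluster and ordered by paralogue number (horizontal axis). HOXD10, HOXD11 and HOXD13 lie above 0 and HOXA9, HOXA11 and HOXA13 below it.

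Receptor tyrosine kinases, the growth factor receptors most often altered in glioblastoma, were called in both directions, as 43 of the 51 listed genes were tested, 14 (32.6%) were higher in U-251MG, 15 (34.9%) were higher in U-2 OS, and the median log2 ratio was 0.28. EGFR, the epidermal growth factor receptor, reached 242, 249, 192 and 294 CPM in U-251MG against 37.2, 31.9, 40.5 and 38.9 CPM in U-2 OS (2.72 ± 0.12, adjusted p = 3.13e-10 in the edgeR test). EPHA3, an ephrin receptor, reached 253, 296, 291 and 282 CPM in U-251MG against 1.17, 0.888, 0.722 and 0.724 CPM in U-2 OS (8.34 ± 0.11). Both were higher in all 4 U-251MG libraries, EGFR with a wide spread among them. MET, the receptor of hepatocyte growth factor (424 ± 61 against 106 ± 6.46 CPM, 2.0 ± 0.09), AXL (1356 ± 135 against 575 ± 18.8 CPM, 1.24 ± 0.07), EPHA2 (289 ± 32.9 against 107 ± 7.14 CPM, 1.43 ± 0.08) and FGFRL1 (328 ± 40.8 against 47.5 ± 3.78 CPM, 2.79 ± 0.09) were higher in U-251MG as well.

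PDGFRA, a receptor of oligodendrocyte progenitors and of mesenchyme, had the opposite direction, with 2.25, 2.22, 1.42 and 2.05 CPM in U-251MG against 25.4, 27.1, 29.9 and 27.6 CPM in U-2 OS (-3.78 ± 0.13, adjusted p = 9.41e-16 in the edgeR test). U-251MG was low in every library and the U-2 OS values were narrow. IGF1R (85.6 ± 3.16 against 252 ± 18.5 CPM, -1.55 ± 0.07), FGFR4 (0.595 ± 0.187 against 22.4 ± 2.18 CPM, -5.18 ± 0.16) and ERBB3 (0.364 ± 0.145 against 6.97 ± 0.502 CPM, -4.26 ± 0.21) were higher in U-2 OS, and EPHB6 and ROR2 had 0 against 2127 counts and 0 against 1458 counts (at least 669-fold and at least 458-fold).

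Ligands of these receptors gave 18 higher in U-251MG and 13 higher in U-2 OS among 44 tested of 51, median 0.46. VEGFA, which drives vessel growth (412 ± 147 against 54.2 ± 5.94 CPM, 2.93 ± 0.31), the EGFR ligand TGFA (109 ± 3.83 against 12.1 ± 1.24 CPM, 3.17 ± 0.08), PDGFC (172 ± 9.82 against 34.5 ± 3.89 CPM, 2.32 ± 0.08), FGF5 (123 ± 50.4 against 6.78 ± 0.78 CPM, 4.18 ± 0.34) and the ephrin EFNB2 (131 ± 10 against 0.458 ± 0.204 CPM, 8.13 ± 0.14) were higher in U-251MG. IGF2, a ligand of IGF1R, reached 0.0537, 0.0342, 0.0458 and 0.036 CPM in U-251MG against 95.1, 78.7, 74 and 88 CPM in U-2 OS (-10.83 ± 0.18). Its U-251MG values were at trace level in every library, so that receptor and ligand were both higher in U-2 OS. MDK, midkine, was also higher in U-2 OS (17.3 ± 3.49 against 203 ± 16.6 CPM, -3.56 ± 0.13).

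Genes of the TGF-beta and BMP pathway were called mainly towards U-2 OS, as 49 of the 55 listed genes were tested, 5 (10.2%) were higher in U-251MG, 18 (36.7%) were higher in U-2 OS, and the median log2 ratio was -0.47. Among the ligands, BMP7 had 0 against 1925 counts (at least 605-fold), BMP5 had 0.246 ± 0.107 against 102 ± 3.55 CPM (-8.72 ± 0.14) and INHBA, the activin A chain, had 24.3 ± 2.14 against 231 ± 8.3 CPM (-3.25 ± 0.07), while TGFB2 met no call (249 against 318 CPM, -0.35 ± 0.07). The antagonists NOG (3.56 against 29.8 CPM, -3.08 ± 0.15), CHRD (0.508 against 8.03 CPM, -3.99 ± 0.19), FSTL3 (25.9 against 122 CPM, -2.24 ± 0.08) and FST (13.6 against 41.5 CPM, -1.61 ± 0.13) had the same direction as the ligands. The receptors TGFBR1 (193 against 127 CPM) and TGFBR2 (126 against 150.2 CPM) and the signal transducers SMAD2, SMAD3 and SMAD4 (-0.01, -0.58 and 0.41) met no call. FSTL1 (834 against 1279 CPM) and SMURF2 (237 against 136 CPM) met no call either.

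WNT pathway genes leaned the same way, as 48 of the 58 listed genes were tested, 7 (14.6%) were higher in U-251MG, 19 (39.6%) were higher in U-2 OS, and the median log2 ratio was -0.47. DKK1, a secreted WNT antagonist, was the exception in size, with 207, 149, 109.7 and 321 CPM in U-251MG against 0.217, 0.296, 0.361 and 0.172 CPM in U-2 OS (9.53 ± 0.63). It was high in every U-251MG library but spread about 3-fold among them, and its U-2 OS values were at trace level. The ligands WNT5A (99.3 against 47.1 CPM, 1.08 ± 0.08) and WNT5B (91.2 against 7 CPM, 3.71 ± 0.08) were higher in U-251MG, WNT5A without a call when U-251MG replicate 8 was left out (0.97). Among genes induced by WNT signalling, AXIN2 (5.25 ± 0.753 against 31.1 ± 2.15 CPM, -2.57 ± 0.11), NKD1 (2 against 933 counts), RNF43 (0.0685 ± 0.0253 against 11.2 ± 1.59 CPM, -7.20 ± 0.25) and LGR5 (0.194 ± 0.0911 against 3.97 ± 0.351 CPM, -4.31 ± 0.26) were higher in U-2 OS. These are examples only, DKK1 had the other direction, and the activity of the pathway was not tested. The co-receptor LRP6 was higher in U-2 OS as well (94.8 against 223 CPM, -1.23 ± 0.06), and CTNNB1, beta-catenin (751 against 454 CPM), GSK3B (108 against 175 CPM), FZD6 (152 against 121 CPM) and DKK3 (239.8 against 203 CPM) met no call.

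In the Notch pathway 32 of the 37 listed genes were tested, 9 (28.1%) were higher in U-251MG, 9 (28.1%) were higher in U-2 OS, and the median log2 ratio was 0.08. NOTCH3 reached 0.483, 0.376, 0.275 and 0.216 CPM in U-251MG against 90.7, 88.3, 98.2 and 90 CPM in U-2 OS (-8.10 ± 0.13), so that the receptor was close to absent from U-251MG. NOTCH2 met no call (407 ± 16 against 436 ± 58.7 CPM, -0.10 ± 0.08), and the ligand JAG1 was higher in U-251MG (349 ± 30.1 against 45.7 ± 1.98 CPM, 2.94 ± 0.07). Among the targets of the pathway, HEY1 (10.3 against 3.95 CPM), HEY2 (98 against 0 counts), HES4 (82 against 0 counts) and NRARP (4.86 against 0.155 CPM) were higher in U-251MG, whereas HES1 met no call (32.9 against 29.8 CPM). RBPJ, the DNA-binding effector, was higher in U-251MG close to the limit of the call (167 against 83.2 CPM, 1.01 ± 0.08), which it missed without U-2 OS replicate 3 (0.98) or U-251MG replicate 8 (0.90).

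The following genes of growth arrest and the DNA damage response were picked after their values were seen and do not stand for a list. CDKN1A, the cell cycle inhibitor p21, reached 55.3, 49.9, 55.4 and 41.1 CPM in U-251MG against 149, 153, 160.3 and 151 CPM in U-2 OS (-1.61 ± 0.08, adjusted p = 8.80e-13 in the edgeR test), without overlap. MDM2, a ubiquitin ligase, had 105 ± 5.79 against 205 ± 1.65 CPM and fell just short of the call (-0.96 ± 0.06). RRM2B (51.1 ± 1.06 against 223 ± 11.7 CPM, -2.13 ± 0.06), SFN (1.44 ± 0.416 against 170.3 ± 12.9 CPM, -6.89 ± 0.12), FDXR (5.76 ± 0.638 against 39.6 ± 4.95 CPM, -2.79 ± 0.11), EDA2R (1.41 ± 0.419 against 35.5 ± 0.5 CPM, -4.69 ± 0.14) and BTG2 (0.701 ± 0.305 against 48.3 ± 1.93 CPM, -6.14 ± 0.15) were higher in U-2 OS. PLK2 (399 ± 55.1 against 128 ± 3.49 CPM, 1.64 ± 0.08), PMAIP1 (226 ± 19.3 against 86.2 ± 3.91 CPM, 1.39 ± 0.07) and TNFRSF10B (174 ± 24.5 against 73.2 ± 2.44 CPM, 1.25 ± 0.08) were higher in U-251MG.

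Cyclins and inhibitors of their kinases gave 5 higher in U-251MG and 7 higher in U-2 OS among 32 tested of 33, median -0.06. The D-type cyclins lay on different sides, with CCND1 at 901 ± 143 against 390.2 ± 6.03 CPM (1.21 ± 0.09) and CCND2 confined to U-2 OS as described above, and CDK6 met no call (486 against 650.2 CPM). CDKN2A, which encodes p16 and p14ARF (chromosome 9, 21967751 to 21995300), had 0 counts in all 8 libraries of both lines, whereas the 4 A-431 libraries had 20, 20, 30 and 22 counts. Intersection-strict counting can drop reads where annotated genes overlap, as antisense transcripts do here, so that the 0 is not read as absence of the transcript. Its neighbour CDKN2B, p15 (chromosome 9, 22002902 to 22009304), had 0 CPM in every U-251MG library against 7.94, 9.51, 8.23 and 9.14 CPM in U-2 OS (0 against 901 counts, at least 283-fold higher in U-2 OS), and reads of the antisense transcript at this locus cannot be told apart from it. MTAP, on the other side of CDKN2A, was counted in both lines (146 ± 16.7 against 64.3 ± 1.59 CPM, 1.18 ± 0.07).

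CDKN2C, p18, and its neighbour FAF1, which promotes cell death, were both higher in U-2 OS. CDKN2C (chromosome 1, 51426417 to 51440306) reached 0.215, 0.0684, 0 and 0.0719 CPM in U-251MG against 49.8, 51.7, 53.8 and 58.1 CPM in U-2 OS (-9.26 ± 0.20). FAF1 (chromosome 1, 50902700 to 51425939) reached 0.161, 0.171, 0.0916 and 0.0719 CPM in U-251MG against 85.3, 84.1, 83.1 and 86.8 CPM in U-2 OS (-9.37 ± 0.14, adjusted p = 6.03e-21 in the edgeR test). Both were near 0 in all U-251MG libraries, and the next well-counted gene beyond CDKN2C, RNF11, had 273 against 152 CPM without a call. On the other side of FAF1 no well-counted gene was near, and the tested genes there, AGBL4 (1 against 64 counts) and BEND5 (40 against 383 counts), were also called towards U-2 OS. In A-431 the pair had 54.1 ± 3.93 CPM and 101 ± 2.5 CPM (scaled over the 12 total RNA libraries). The pair was picked once its values were known, and the cause was not tested.

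Of the telomere maintenance genes 29 of the 33 listed genes were tested, 3 (10.3%) were higher in U-251MG, 3 (10.3%) were higher in U-2 OS, and the median log2 ratio was 0.18. ATRX, a chromatin remodeller lost in tumours that maintain telomeres without telomerase, reached 149, 132, 172 and 131 CPM in U-251MG against 372, 377, 370.2 and 388 CPM in U-2 OS (-1.37 ± 0.08). It was higher in every U-2 OS library, and its partner DAXX met no call (82.8 against 107 CPM). Counts per gene do not show whether the ATRX transcript or protein is intact, and telomere maintenance was not measured. TERT, the catalytic subunit of telomerase, did not pass the filter (36 against 3 counts). Mitosis genes were nearly level, with 1 higher in U-251MG and 3 higher in U-2 OS among 42 tested of 42, median 0.03. The exceptions were ECT2 towards U-251MG (486 ± 54.1 against 191 ± 4.85 CPM, 1.34 ± 0.07) and DLGAP5 (168 ± 6.63 against 387 ± 14.9 CPM, -1.20 ± 0.06), SPC25 (39.1 against 85.7 CPM, -1.13 ± 0.08) and CENPM (14.6 against 31.8 CPM, -1.13 ± 0.09) towards U-2 OS, while TOP2A (887 against 1298 CPM), TPX2 (483 against 517 CPM) and FOXM1 (496 against 454 CPM) met no call.

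VIM, vimentin, the intermediate filament of mesenchymal and glial cells, reached 6628, 7274, 7014 and 6999.9 CPM in U-251MG against 1841, 1863, 1923 and 1827 CPM in U-2 OS (1.91 ± 0.06). It was abundant in every library of both lines. Keratins, the filaments of epithelia, were present in both lines but with different members, and intermediate filaments as a list gave 6 higher in U-251MG and 9 higher in U-2 OS among 23 tested of 30, median -0.20. KRT17 (0.0984 ± 0.0565 against 454 ± 27.5 CPM, -12.05 ± 0.14), KRT8 (1.56 ± 1.39 against 385 ± 14.7 CPM, -8.04 ± 0.41) and KRT18 (30.6 ± 3.31 against 241 ± 5.65 CPM, -2.98 ± 0.08) were higher in U-2 OS. KRT81 (1414 ± 163 against 223 ± 7.24 CPM, 2.66 ± 0.08) and KRT86 (26.9 ± 5.17 against 0.527 ± 0.0796 CPM, 5.65 ± 0.19) were higher in U-251MG. Reads of these hair keratins may be lost or misassigned between copies. In the epithelial list, SFN was high in U-2 OS, with its values given above, while EPCAM and CDH1 were low in both lines. In that list 21 of the 35 listed genes were tested, 1 (4.76%) were higher in U-251MG, 13 (61.9%) were higher in U-2 OS, and the median log2 ratio was -2.27, with EPCAM at 0.226 against 5.42 CPM and CDH1, E-cadherin, at 0.229 against 1.55 CPM, and 14 of the 35 members, including GRHL2 and TP63, did not pass the filter.

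Markers of further cell types were low. Endothelial genes gave 2 higher in U-251MG and 7 higher in U-2 OS among 9 tested of 15, median -4.41, hematopoietic genes 4 higher in U-251MG and 3 higher in U-2 OS among 7 tested of 17, median 3.44, melanocyte and neural crest genes 1 higher in U-251MG and 3 higher in U-2 OS among 7 tested of 14, median -1.21, and skeletal muscle genes 0 higher in U-251MG and 7 higher in U-2 OS among 9 tested of 17, median -3.57. TIE1, CD3E, MLANA and MYOD1 did not pass the filter, and the endothelial marker PECAM1 was not matched to a row of the count tables. Some members were nevertheless well counted. Of the endothelial genes, KDR, a receptor of VEGFA, was higher in U-251MG (11.3 ± 4.26 against 0.398 ± 0.186 CPM). EGFL7 was higher in U-2 OS (0.839 ± 0.0864 against 11.2 ± 2.55 CPM), as were most tested endothelial genes. The macrophage proteins CD68 (50.9 ± 6.51 against 3.28 ± 0.34 CPM) and LCP1 (36.4 ± 2.36 against 3.33 ± 0.551 CPM) were higher in U-251MG. TNNT1, slow troponin T (1.87 ± 0.636 against 84.8 ± 5.58 CPM), and TNNC1, troponin C (0.44 ± 0.48 against 43.1 ± 4 CPM), were higher in U-2 OS. In RNA of whole cultures, fewer cells with a transcript and less of it per cell cannot be told apart.

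Actin and contractile genes were called about as often as all tested genes (36.1%), as 43 of the 46 listed genes were tested, 9 (20.9%) were higher in U-251MG, 6 (14%) were higher in U-2 OS, and the median log2 ratio was 0.36. FLNC, filamin C, reached 0.215, 0.0684, 0.412 and 0.288 CPM in U-251MG against 515, 383, 426 and 405 CPM in U-2 OS (-10.81 ± 0.19). MYL9, a myosin light chain of smooth muscle, reached 0.0537, 0.0342, 0.0458 and 0.0719 CPM in U-251MG against 136, 128, 135 and 122 CPM in U-2 OS (-11.18 ± 0.14). Both were at trace level in U-251MG, whereas FLNA (3734 against 2597 CPM), MYH9 (2076 against 1850.0 CPM) and TPM1 (954 against 743 CPM) met no call. ACTG2, a smooth muscle actin, had the reverse pattern (94.1 ± 3.24 against 0.336 ± 0.0597 CPM, 8.10 ± 0.12), and ACTN4 (1483 ± 163 against 351 ± 14.2 CPM, 2.08 ± 0.08) and TPM4 (1058 ± 46.8 against 217 ± 3.25 CPM, 2.29 ± 0.06) were higher in U-251MG.

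Genes of antigen presentation and of the interferon response gave 15 higher in U-251MG and 10 higher in U-2 OS among 48 tested of 61, median 0.56. B2M, the light chain of class I molecules (1152 ± 77 against 440.1 ± 14.4 CPM, 1.39 ± 0.06), and the peptide transporter TAP2 (74.5 ± 3.96 against 18.8 ± 1.37 CPM, 1.98 ± 0.08) were higher in U-251MG, while HLA-B was higher in U-2 OS (69 ± 11.9 against 148 ± 4.61 CPM, -1.11 ± 0.10) and HLA-C met no call (84.1 against 140.4 CPM). Reads of these polymorphic and similar genes may be split or lost in alignment to the reference, so that the heavy chain values are uncertain. GBP1, an interferon-induced GTPase (65.7 ± 0.905 against 1.98 ± 0.176 CPM, 5.05 ± 0.09), was higher in U-251MG and the DNA sensor CGAS (0.111 ± 0.0896 against 14.7 ± 0.838 CPM, -7.09 ± 0.25) in U-2 OS.

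Cytokines, chemokines and their receptors gave 13 higher in U-251MG and 12 higher in U-2 OS among 31 tested of 45, median 0.04. CXCL14 reached 0.0537, 0.0342, 0.0916 and 0.36 CPM in U-251MG against 178, 198, 227 and 207 CPM in U-2 OS (-10.42 ± 0.21), near 0 in every U-251MG library and high in every U-2 OS library. IL13RA2, a decoy receptor described in gliomas (233 ± 14.4 against 0.546 ± 0.276 CPM, 8.76 ± 0.14), CXCL8, interleukin 8 (80.7 ± 38.9 against 4.83 ± 0.681 CPM, 4.07 ± 0.41), and IL11 (96.7 ± 5.95 against 8.2 ± 0.95 CPM, 3.56 ± 0.09) were higher in U-251MG. LIFR was higher in U-2 OS (47.9 ± 7.23 against 158 ± 8.57 CPM, -1.72 ± 0.09), its partner IL6ST was higher in U-251MG close to the limit (497 ± 58.1 against 242 ± 3.59 CPM, 1.04 ± 0.07), and OSMR met no call (136 against 151 CPM). Without U-251MG replicate 8 the ratio of IL6ST was 0.96 and it was not called.

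Glycolytic genes gave 9 higher in U-251MG and 6 higher in U-2 OS among 32 tested of 32, median 0.52. LDHA, the lactate dehydrogenase subunit that favours lactate production, reached 27.3, 30.8, 28.9 and 29.5 CPM in U-251MG against 1096, 1094, 968 and 1169 CPM in U-2 OS (-5.21 ± 0.08, adjusted p = 8.40e-21 in the edgeR test). It was low in all 4 U-251MG libraries, and reads of this gene that also match its pseudogenes may be lost or misassigned. LDHB, the other subunit, met no call (996 ± 35 against 781 ± 45 CPM, 0.35 ± 0.06). The lactate exporter SLC16A3 (221 ± 39.6 against 3.9 ± 1.21 CPM, 5.83 ± 0.26), the glucose transporter SLC2A1 (490.4 ± 35.9 against 106 ± 4.87 CPM, 2.20 ± 0.07) and hexokinase HK2 (112 ± 18.5 against 23.6 ± 1.53 CPM, 2.25 ± 0.10) were higher in U-251MG. ENO1 (1994 against 1819 CPM) and ALDOA (797 against 429 CPM) met no call. In A-431, LDHA was at 2242 ± 149.6 CPM.

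Genes of amino acid synthesis and transport were called more often towards U-251MG, as 40 of the 40 listed genes were tested, 11 (27.5%) were higher in U-251MG, 4 (10%) were higher in U-2 OS, and the median log2 ratio was 0.77. They included the glutamine transporter SLC38A1 (585 ± 124 against 78.9 ± 4.32 CPM, 2.89 ± 0.14), the cystine transporter SLC7A11 (391 ± 169 against 93 ± 2.64 CPM, 2.07 ± 0.31), the serine synthesis enzyme PSAT1 (371 ± 197 against 62.7 ± 4 CPM, 2.56 ± 0.38) and BCAT1, a branched-chain transaminase (703 ± 116 against 252 ± 6.48 CPM, 1.48 ± 0.09). The arginine transporter SLC7A2 was high only in U-2 OS of these lines, with 2 against 4084 counts (a ratio of 1926 with a counting interval of 533 to 15905). SLC7A5 (761 against 424 CPM), SLC38A2 (617 against 523 CPM) and MTHFD2 (479 against 322 CPM) met no call. The U-251MG libraries spread widely for SLC7A11 and PSAT1, whose calls held only without U-251MG replicate 7 or 8 among the omissions of 1 library, the adjusted p otherwise reaching 3.81e-03 and 3.77e-03 in the edgeR test.

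Detoxification genes gave 12 higher in U-251MG and 7 higher in U-2 OS among 34 tested of 47, median 0.46. MGMT, which repairs the DNA lesion made by temozolomide, had 0 CPM in every U-251MG library against 4.78, 3.76, 4.65 and 3.93 CPM in U-2 OS (0 against 442 counts, at least 139-fold higher in U-2 OS). No U-251MG library held a read of it. The quinone reductase NQO1 (287 ± 25.8 against 90.9 ± 4.49 CPM, 1.66 ± 0.07), the glutathione synthesis subunit GCLM (229 ± 29.3 against 53.9 ± 1.21 CPM, 2.08 ± 0.08) and the thioredoxin reductase TXNRD1 (786 ± 117 against 346 ± 11.7 CPM, 1.18 ± 0.09) were higher in U-251MG, while the partner subunit GCLC (59.4 against 70.1 CPM) and HMOX1 (17.6 against 17.9 CPM) met no call. MGST1 was also higher in U-251MG (271 ± 11.8 against 9.79 ± 1.4 CPM, 4.79 ± 0.09), and GSTP1 was higher in U-2 OS (132 ± 16.7 against 361 ± 19.2 CPM, -1.45 ± 0.08).

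Mitochondrial mRNAs were lower in the mean of U-251MG for all 13 genes, with log2 ratios between -1.29 and -0.45, but none passed the p threshold and only 2 had lines without overlap. MT-CO1, a subunit of cytochrome oxidase, reached 6558, 3465, 3980.1 and 3056 CPM in U-251MG against 4635, 8015, 7086 and 6988 CPM in U-2 OS (-0.65 ± 0.29, adjusted p = 8.48e-02 in the edgeR test). U-251MG replicate 5 and U-2 OS replicate 1 lay within the other line's range. MT-ND4 (-0.88 ± 0.34), MT-ATP6 (-0.94 ± 0.43), MT-CO2 (-0.88 ± 0.24) and MT-CO3 (-1.29 ± 0.26) were other examples. Without U-251MG replicate 5, MT-CO3 (-1.53), MT-ND4 (-1.22) and MT-CO2 (-1.11) were called towards U-2 OS.

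Cancer-testis genes, normally limited to germ cells, were mostly a feature of U-2 OS. In this list 23 of the 42 listed genes were tested, 3 (13%) were higher in U-251MG, 15 (65.2%) were higher in U-2 OS, and the median log2 ratio was -3.89, and 9 of 10 tested MAGE genes of the X chromosome were higher in U-2 OS. MAGEA4 (0.23 ± 0.127 against 217 ± 5.75 CPM, -9.88 ± 0.14) and MAGEA1 (0.325 ± 0.128 against 146 ± 3.64 CPM, -8.77 ± 0.13) followed PRAME, MAGEB2 and MAGEC1, and LIN28B, a regulator of let-7 microRNAs, had 0 against 2444 counts (at least 768-fold). MAGEA3 and MAGEA6 are near-identical and uncertain. The oncofetal gene IGF2BP3 was higher in U-251MG (32.8 ± 2.06 against 1.64 ± 0.413 CPM, 4.30 ± 0.13), and IGF2BP2 met no call (135 against 105 CPM). Many listed members are multicopy genes, and 19 of the 42 did not enter the test.

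Imprinted genes gave 7 higher in U-251MG and 10 higher in U-2 OS among 25 tested of 37, median -0.29. IGF2 was joined in U-2 OS by its neighbour H19, with 0 against 926 counts (at least 291-fold), and by NDN, with 3 against 12894 counts (a ratio of 4053 with a counting interval of 1386 to 19655), and PEG3, with 1 against 2094 counts. PEG10 (316 ± 21.1 against 14.8 ± 0.848 CPM, 4.41 ± 0.08), GRB10 (288 ± 25.3 against 96.7 ± 3.71 CPM, 1.57 ± 0.07) and MEST (13.1 ± 1.05 against 0.148 ± 0.0321 CPM, 6.45 ± 0.20) were higher in U-251MG, and GNAS met no call (1226 against 1496 CPM). Ion channels leaned towards U-2 OS, as 46 of the 52 listed genes were tested, 12 (26.1%) were higher in U-251MG, 22 (47.8%) were higher in U-2 OS, and the median log2 ratio was -0.91. KCNMA1, a calcium-activated potassium channel (173 ± 13.6 against 17.3 ± 1.57 CPM, 3.32 ± 0.08), and TRPM7 (210.5 ± 18.3 against 71.9 ± 3.49 CPM, 1.55 ± 0.07) were higher in U-251MG, whereas KCNK1, a background potassium channel (1.29 ± 0.184 against 46.2 ± 1.12 CPM, -5.15 ± 0.11), was higher in U-2 OS.

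Lipid-binding and S100 proteins gave 7 higher in U-251MG and 4 higher in U-2 OS among 18 tested of 30, median 0.45. S100A6 (602 ± 64.8 against 61 ± 5.92 CPM, 3.30 ± 0.09) and S100A16 (337 ± 17.6 against 123 ± 4.08 CPM, 1.45 ± 0.06) were higher in U-251MG and S100A2 (32.8 ± 4.43 against 107 ± 3.7 CPM, -1.71 ± 0.08) in U-2 OS. The housekeeping lists gave few calls. Ribosomal protein genes gave 6 higher in U-251MG and 1 higher in U-2 OS among 73 tested of 74, median 0.23, and proteasome subunits gave 2 higher in U-251MG and 0 higher in U-2 OS among 30 tested of 31, median 0.34. The called proteasome genes were PSMD2 (909 against 435 CPM) and PSMB6 (86.9 against 36.8 CPM), and RPL15 (799.7 against 314 CPM, 1.35 ± 0.06) was the called ribosomal gene with the most counts.

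**Figure D4:**
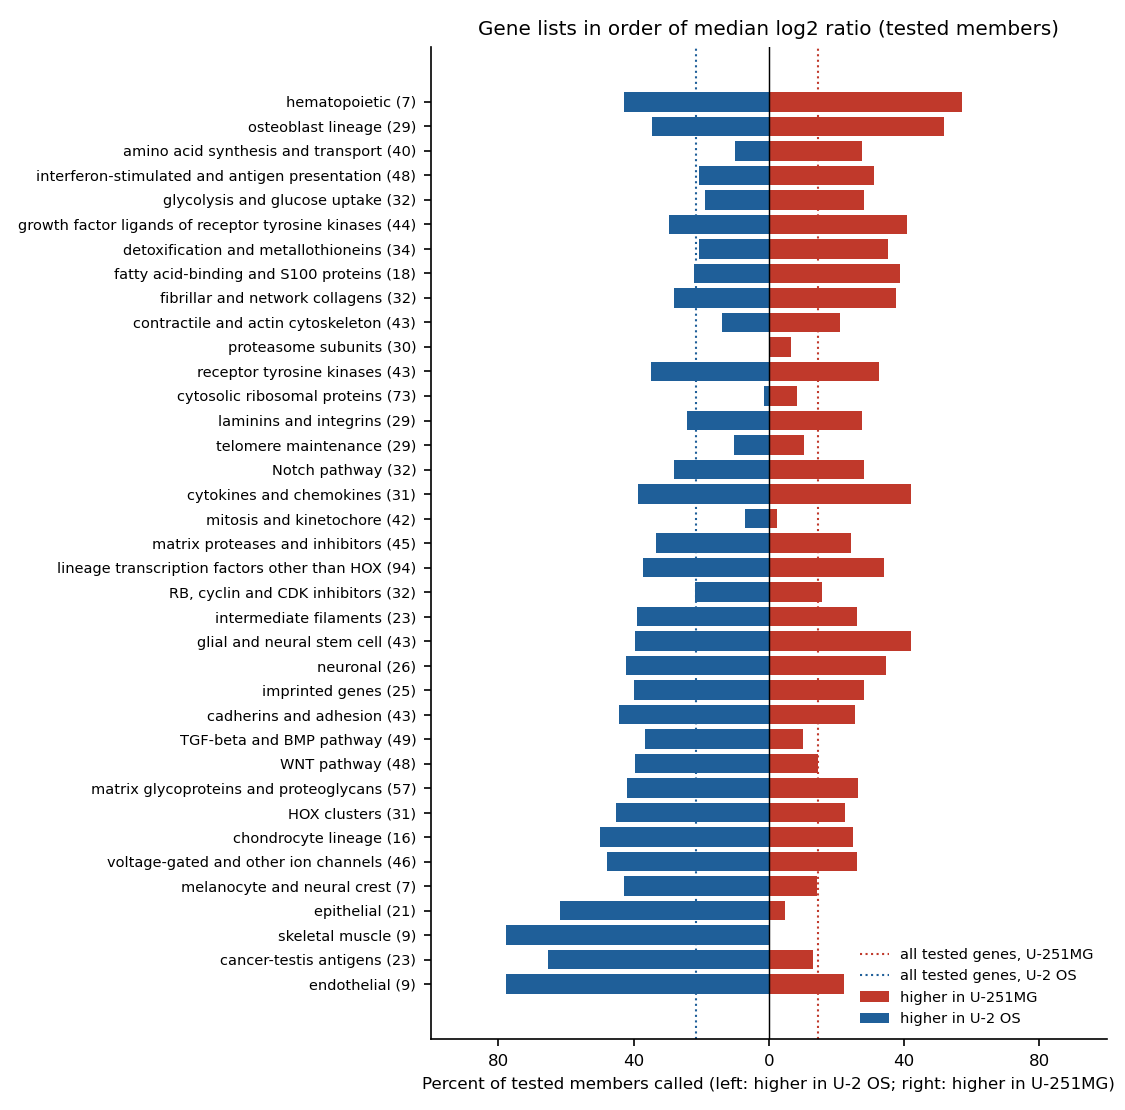
Percent of tested members called higher in U-251MG and higher in U-2 OS (bars, horizontal axis) for the gene lists shown, with dotted lines at the shares over all tested genes (14.6% and 21.5%). The endothelial, skeletal muscle, cancer-testis and epithelial lists have over 60% of their tested members higher in U-2 OS. The endothelial and skeletal muscle lists hold only 9 tested genes each. The mitosis and proteasome lists have the lowest shares of calls.

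Ratios also differed by chromosome. Over 13380 protein-coding genes, 15.9% were higher in U-251MG and 22% higher in U-2 OS, with a median log2 ratio of -0.02. On chromosome 22 the median was -0.95 over 316 genes, 2.22% were higher in U-251MG and 46.5% were higher in U-2 OS. When each U-251MG library was set against the U-2 OS mean, the chromosome 22 median lay between -0.97 and -0.84, so that all 4 libraries shared it, and for genes of at least 10 CPM it was -0.75. Among nuclear chromosomes, 14 (-0.51), 16 (-0.38) and 8 (-0.37) were next in that direction, the 13 mitochondrial genes having a median of -0.82, and chromosomes 13 (0.45), 6 (0.34) and 5 (0.30) had the highest medians. Chromosome 6 had 25.2% of genes higher in U-251MG against 15.5% in U-2 OS. Gene copy number was not measured, and its part in these medians was not tested.

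**Figure D5:**
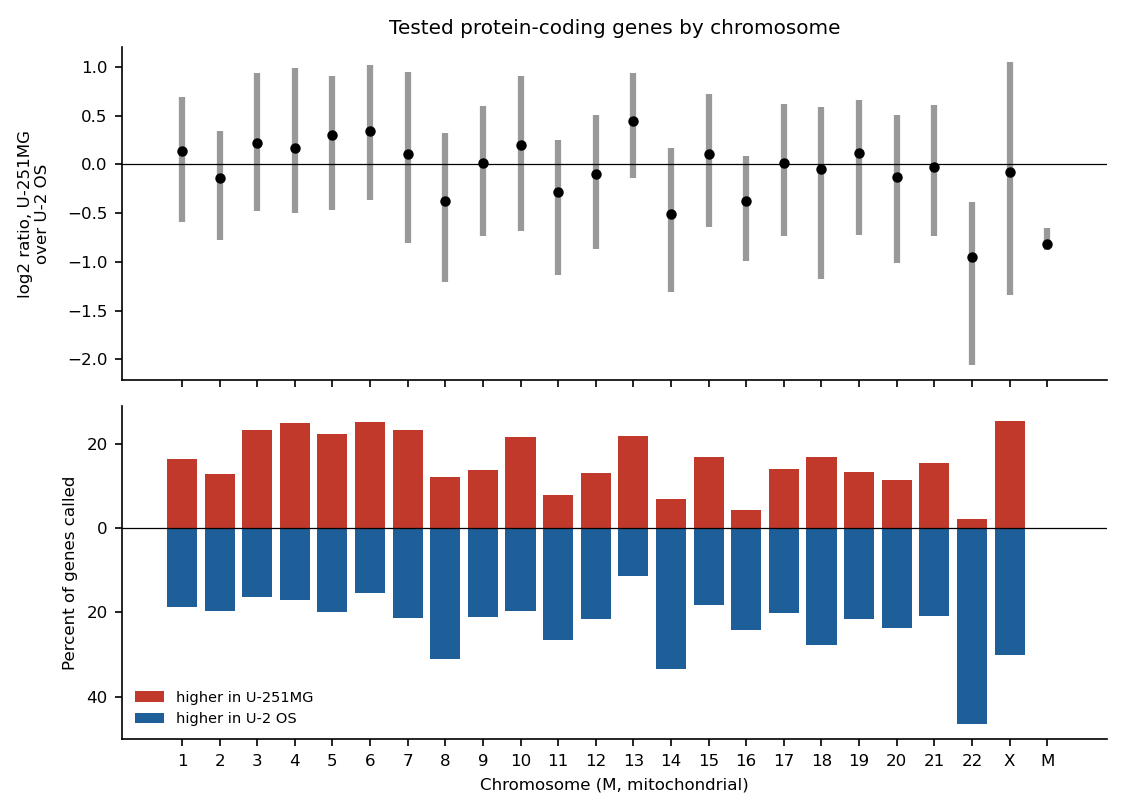
Upper panel, median log2 ratio of U-251MG over U-2 OS for tested protein-coding genes by chromosome (dots, bars are the quartiles); lower panel, percent of those genes called in each direction. Chromosome 22 has the lowest median (-0.95) and 46.5% of its genes higher in U-2 OS.

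Neighbouring genes that were all called in the same direction with a median log2 ratio past 5 in size formed 92 runs towards U-2 OS (365 genes, longest run 9 genes) and 4 towards U-251MG (13 genes, longest run 4 genes). The runs towards U-2 OS included the 8 alpha protocadherins on chromosome 5 and the keratins KRT75, KRT6B, KRT5, KRT8 and KRT18 on chromosome 12. They also included KCNA6, KCNA1, NTF3, ANO2, VWF and CD9 on chromosome 12 and NUDT10, EZHIP, NUDT11, GSPT2 and MAGED1 on the X chromosome. Towards U-251MG the runs included HK2, LINC01291, LINC01293 and POLE4 on chromosome 2, PLSCR1, ZIC4 and ZIC1 on chromosome 3, and CPVL, CHN2 and PRR15 on chromosome 7. Genes of a run can overlap, so that reads of a gene may be lost or given to its neighbour. A run is a description of neighbours rather than of independent genes.

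Genes that carry microRNAs on their own strand, here called hosts, were examined because such microRNAs can be made from the same transcript. MicroRNAs were not measured in these libraries. Of 861 tested hosts of 985 microRNA genes, 153 (17.8%) were higher in U-251MG and 207 (24%) higher in U-2 OS, with a median log2 ratio of -0.06. The shares over all tested genes were close to these, at 14.6% and 21.5%, with a median of -0.03. The mature sequences below, from the RefSeq table (GRCh38.p14), belong to hosts with some of the largest ratios, chosen after their values were seen. Capitals mark the seed, bases 2 to 8, which pairs with target mRNAs, and the 9 microRNAs hold 8 different seeds because the 2 in LINC00472 share GUAAACA.
hsa-miR-30a-5p: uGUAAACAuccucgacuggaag
hsa-miR-30c-5p: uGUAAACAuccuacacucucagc
hsa-miR-335-5p: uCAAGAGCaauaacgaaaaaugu
hsa-miR-224-5p: uCAAGUCAcuagugguuccguuuag
hsa-miR-452-5p: aACUGUUUgcagaggaaacuga
hsa-miR-503-5p: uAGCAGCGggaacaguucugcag
hsa-miR-1245a: aAGUGAUCuaaaggccuacau
hsa-miR-153-3p: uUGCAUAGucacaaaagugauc
hsa-miR-488-3p: uUGAAAGGcuauuucuugguc

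The first 6 have hosts higher in U-251MG. LINC00472, the host of miR-30a and miR-30c-2 on the minus strand of chromosome 6 (72113254 to 72113324 and 72086663 to 72086734, GRCh37), had 351 against 0 counts (at least 124-fold). MEST, an imprinted gene that hosts miR-335, had 13.1 ± 1.05 against 0.148 ± 0.0321 CPM (6.45 ± 0.20), and GABRE, a GABA receptor subunit that hosts miR-224 and miR-452 on the X chromosome, had 4.75 ± 1.9 against 0.0971 ± 0.0883 CPM (5.53 ± 0.45). MIR503HG, the host of miR-503, had 212 against 2 counts. The last 3 have hosts higher in U-2 OS, where COL3A1 hosts miR-1245a. PTPRN, a member of the receptor tyrosine phosphatase family in islet and neuroendocrine cells, hosts miR-153-1 with 0.0404 ± 0.0379 against 92.4 ± 2.23 CPM (-10.97 ± 0.17). ASTN1, a neuronal adhesion protein, hosts miR-488 with 0 against 1525 counts (at least 479-fold).

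The cytoplasmic libraries of the same lines, 4 each, share no library with the total RNA comparison and come from the same lines. There 2551 of 18142 tested genes (14.1%) were higher in U-251MG and 3959 (21.8%) higher in U-2 OS. Of 17468 genes tested in both fractions, 2180 were higher in U-251MG in both, which is 85.1% of the total RNA calls and 87.8% of the cytoplasmic calls. For U-2 OS the number was 3430 (91.6% and 92.9%), and no gene was called in opposite directions. The log2 ratios in cytoplasmic RNA were 11.81 ± 0.33 for UCHL1, 8.61 ± 0.17 for FABP7, -9.90 ± 0.21 for HAPLN1, -11.34 ± 0.18 for PRAME and -5.15 ± 0.09 for LDHA.

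The test of the interaction between line and fraction, at an adjusted p under 0.05, called 88 of 18852 genes (0.467%), of which 78 had a ratio more towards U-251MG in total RNA and 10 had it in the cytoplasm. In 21 of the 88 the ratios of the fractions had different signs. IQGAP1, a scaffold of the actin cortex, had the smallest adjusted p, with a log2 ratio of 1.0 ± 0.07 in total and -0.60 ± 0.10 in cytoplasmic RNA (interaction 1.60 ± 0.12, adjusted p = 1.64e-07 in the edgeR test). Its call in total RNA was lost without U-2 OS replicate 2 or 3 or U-251MG replicate 8 (0.96 to 0.98). MAP1B (1.36 ± 0.08 and 0.76 ± 0.06, interaction 0.59 ± 0.10) and CENPF (-0.0034 ± 0.07 and -0.38 ± 0.06, interaction 0.37 ± 0.08) were also called. The count was unstable. The study set aside a U-2 OS cytoplasmic library for its nuclear RNA without a label that identifies it, and without replicate 13, whose read total matches none that the study lists, 165 genes were called. Leaving out any other single library but U-251MG total replicate 5 (109 genes) also moved the count by over 1.5 times, from 18 genes without U-2 OS total replicate 2 to 216 without U-251MG cytoplasmic replicate 19.

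Compared with A-431, several differences placed U-251MG or U-2 OS apart from an epithelial line. With all 12 total RNA libraries scaled together, VIM had 6837 ± 359 CPM in U-251MG, 1855 ± 41.3 CPM in U-2 OS and 2.66 ± 1.2 CPM in A-431. EGFR had 239.7 ± 44.6 CPM in U-251MG, 37 ± 3.79 CPM in U-2 OS and 16020.0 ± 917 CPM in A-431. NT5E had 1029 ± 178 CPM in U-251MG, 0.681 ± 0.495 CPM in U-2 OS and 131 ± 13.1 CPM in A-431, and MAGEA4 had 0.224 ± 0.124 CPM in U-251MG, 216 ± 5.8 CPM in U-2 OS and 483 ± 17.6 CPM in A-431. VIM was thus scarce in A-431 and abundant in both other lines, EGFR was far higher in A-431, and NT5E and MAGEA4 were each shared by A-431 with only 1 of the other lines. KRT17 was at 108 ± 20.3 CPM and KRT5 at 74.7 ± 5.02 CPM in A-431.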

How the data were processed

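Polyadenylated RNA from whole cells was sequenced for 4 libraries each of U-251MG and U-2 OS, grouped here by their labels. The labels name Trizol and paired-end libraries, whereas the methods name a column kit and single reads, and this difference could not be resolved. The authors used TopHat 1.1.4 for alignment to hg19 (GRCh37), together with SAMtools 0.1.8, and the deposited counts per gene were made with HTSeq 0.4.6 in intersection-strict mode without strand, so that genes overlapping on opposite strands share an uncertain assignment. The submitters' processing notes also name DESeq. The deposited RPKM values, made by the authors with rpkmforgenes, served only as an alternative. Reads that HTSeq gave to no gene (25.9 to 30.2%) stayed out of library sizes. Gene counts per library ran from 19918911 to 30835231.

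Counts were filtered with filterByExpr, scaled by TMM and tested with edgeR 4.0.16 in R 4.3.3 (quasi-likelihood F-test with robust dispersions, p adjusted by Benjamini-Hochberg, 8 libraries). A call needed an adjusted p under 0.001 and a log2 ratio of at least 1 in size, and the interaction of line and fraction an adjusted p under 0.05. Levels are given with their SD over 4 libraries and log2 ratios with their SE. With 0 counts in a line the fold is a bound against 3 counts summed over its 4 libraries, and with 1 to 3 counts a ratio with its 95% interval is given. Both cover counting error only. GENCODE for GRCh37 gave positions and symbols for 42986 of 51715 genes. Summed measures per library were compared by a 2-sided exact permutation test in scipy 1.17.1. On simulated counts for 17378 genes, the comparison of total RNA called 100 of 100 genes changed by a log2 ratio of 1.5, 100 of 100 changed by 3, and 0 others, and the interaction called 200 of 200 genes changed by 1.5 with 10 false calls among 18852 genes. Both sizes of change lie above the cutoff of 1. Every simulated gene had the same dispersion, and only genes of at least 1 CPM were changed. The simulation thus checks the procedure and does not measure its power on these data. Recovery of smaller changes was not tested, nor was recovery by gene level or by spread among libraries. Alternatives were other size factors, DESeq2 1.42.0, limma 3.58.1 on RPKM, other thresholds, thinned counts, a GC offset, subsets sharing lanes or a multiplex tag (from the library list of the study, matched by read total), leaving out each library, and, added after seeing the data, lane as a block over the 12 total RNA libraries.

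The members and lists were chosen with earlier results of these data known. The genes to be named were the 14 called protein-coding genes per direction with the largest ratio, a mean of at least 30 CPM in the higher line and no overlap of the lines, up to 6 list members apiece, ranked by mean CPM, every member of lists with 5 or fewer calls, the 8 most counted protein-coding genes per line, a short set of tumour and lineage genes, and runs of at least 3 called neighbours with a median log2 ratio past 5 in size. Other named genes were picked after their values were seen. Y-linked genes and XIST were left out, and some genes and one gene list are not reported here.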

Additional observations from a re-analysis of the deposited data

Results flagged for a closer look

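The search covered the named genes with a mean of at least 1 CPM in a line and the summed measures per library. Each group of 4 libraries was searched for a library far from the other 3, by the critical value of Dixon's gap over range. Of 551 groups, 22 (3.99%) held such a library, all of them for named genes. For independent groups chance gives about 1 in 20, but these groups share the same libraries and are not independent. In U-251MG, replicate 5 was low for CTNNB1 (685 CPM) and SPP1 (75.2 CPM) and high for HOXA3 (6.65 CPM) and HOXB3 (56.8 CPM). Replicate 6 was high for JAG1 (394 CPM). Replicate 7 was high for ADAM9 (697 CPM) and low for PCDH10 (33.6 CPM), SMAD3 (111 CPM) and VCAN (1011 CPM). Replicate 8 was high for ECT2 (567 CPM) and low for FDXR (4.82 CPM). In U-2 OS, replicate 1 was high for FAT1 (629.96 CPM), LRP6 (242 CPM) and MET (115 CPM) and low for SOX2 (17.1 CPM) and TPM4 (212 CPM). Replicate 3 was high for HOXA11 (11.8 CPM), MGAT3 (35.6 CPM) and RPL15 (336 CPM) and low for HOXA3 (1.84 CPM). Replicate 4 was high for OLIG2 (4.34 CPM) and low for SLC2A1 (99.1 CPM). FAT1 stood farthest out in proportion in U-2 OS, with 415 to 451 CPM in the other 3 libraries, and HOXA3 in U-251MG, with 3.97 to 4.07 CPM in the others.

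The ratio of the lines differed between total and cytoplasmic RNA, by the interaction term of the edgeR model, for 3 named genes. The log2 ratio in total RNA exceeded that in the cytoplasm by 1.60 for IQGAP1, by 0.59 for MAP1B and by 0.37 for CENPF.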

How the results depend on the processing

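The counts of 2587 genes higher in U-251MG and 3791 higher in U-2 OS stayed within 1.5 times under other size factors, DESeq2, no filter on low counts, an adjusted p under 0.05, thinned counts, a model of all 6 groups, lanes holding both lines, a shared multiplex tag and a GC offset. With lane as a block over the 12 total RNA libraries, added after seeing the data, they were 2420 and 3898. Without a fold they became 5315 and 5798. A test against a log2 ratio of 1 (glmTreat) gave 1599 and 2916, and limma on log2(RPKM + 0.1) gave 1496 and 3317. On that scale the median log2 ratio of all genes was -0.205 against -0.031. Leaving out 1 library gave 2543 to 2631 and 3734 to 4000. The interaction called 492 genes in place of 88 with DESeq2, 165 without U-2 OS cytoplasmic replicate 13, and 18 to 216 without 1 library. Among the 330 named genes, 42 lost their call and 8 gained one under at least 1 alternative, and no called gene reversed. SLC7A11, PSAT1 and HOXA6 lost it under 6 of the 8 omissions of 1 library, and ITGA3, ALCAM, RBPJ and IQGAP1 lost it under other size factors. MT-CO3 was called under DESeq2, with the lane block and without U-251MG replicate 5. On lanes holding both lines (2 libraries per line) VEGFA, DKK1 and CXCL8 were not called, and with RPKM neither GFAP nor SOX2. The causes were not tested. Of the medians of gene lists under the alternatives, 97 moved and 587 did not, and the sign changed for 7 lists, among them the glial and neural stem cell list (-0.20, but 0.29 on thinned counts and 0.12 with RPKM) and the Notch list (0.08, but -0.21 with RPKM). The lines share no replicate numbers, so no fit was blocked by replicate. At this depth, genes under the filter were not tested.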
